A study of Mus musculus with 30 samples.

Results

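Rasl11b, Gli3 and Mpp7 were followed in AtT-20 cells, a line from a mouse pituitary tumour that makes ACTH as corticotropes do, after addition of corticotropin-releasing hormone (CRH). The cells were held without serum for 18 h and then received 100 nM human/rat CRH for 1, 3, 6, 12 or 24 h, and their controls stayed in the same serum-free medium without CRH for the same time. RNA of both was hybridised together on spotted cDNA arrays in the dyes Cy3 and Cy5. Each time point was measured on 6 arrays, with the CRH RNA in Cy3 on 3 of them and in Cy5 on the other 3, which gives 30 arrays in all. The 6 arrays of a time point share 1 pair of RNA extracts, so their SD measures labelling, hybridisation and scanning and not the spread between cultures. The single line and the single extract pair limit what each value stands for. Genes were identified by the names deposited with the spots. A symbol could be matched to 7204 of the 22830 gene spots, so a gene not found by name may still be on the array. The members were all spots under the provisional names, of RIKEN cDNAs for Rasl11b and Mpp7 and of an expressed sequence for Gli3, that RefSeq lists as synonyms of these genes. They comprised 5 of 22830 spots that carry a gene, namely spots 2904 and 8264 for Rasl11b, spots 7196 and 23665 for Gli3 and spot 7645 for Mpp7. Spots 2904, 7196 and 7645 were selected on their mean ratios in these arrays, and their ratios are therefore given as a description without a test.

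Rasl11b belongs to a branch of the RAS superfamily of small GTPases that differs from classical RAS in lacking the lipid anchor at the carboxy terminus. Gli3 is a zinc finger transcription factor of Hedgehog signalling: without a Hedgehog ligand it is processed, after phosphorylation by protein kinase A, into a repressor of the pathway's target genes, and the ligand lets the full-length activator form persist. Mpp7 is a membrane-associated guanylate kinase (MAGUK), a scaffold that binds Dlg1 and Lin7 proteins in complexes of cell polarity and cell junctions. CRH acts on corticotropes through a receptor that raises cAMP and activates protein kinase A, which also phosphorylates the transcription factor CREB.

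RefSeq places Rasl11b on chromosome 5 from 74195326 to 74199477 and Gli3 on chromosome 13 from 15463723 to 15730026 of the mouse assembly GRCm38.p6. The 250 bases before both gene starts are shown because both genes had their highest mean ratio at 1 h, and a cAMP response element, the site through which CREB acts, would be sought in front of them. Both windows lie on the plus strand, at chr5:74195076-74195325 and chr13:15463473-15463722, and the capitals mark the GC box GGGCGG on either strand.
Rasl11b: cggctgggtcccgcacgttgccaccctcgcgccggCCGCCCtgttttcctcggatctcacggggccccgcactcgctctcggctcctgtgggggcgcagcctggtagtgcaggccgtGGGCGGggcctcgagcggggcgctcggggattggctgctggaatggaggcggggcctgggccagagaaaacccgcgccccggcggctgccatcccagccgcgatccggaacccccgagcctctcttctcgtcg
Gli3: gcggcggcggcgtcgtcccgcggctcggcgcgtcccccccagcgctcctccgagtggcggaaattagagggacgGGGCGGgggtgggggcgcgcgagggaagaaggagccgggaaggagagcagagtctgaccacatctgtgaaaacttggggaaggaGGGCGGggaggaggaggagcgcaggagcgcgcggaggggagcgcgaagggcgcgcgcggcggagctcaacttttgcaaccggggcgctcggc

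Of the 2 windows, that of Rasl11b was 74% G or C and that of Gli3 72.8%, against a median of 52.4% over the 32851 RefSeq windows of the same length. Each held the GC box at 2 positions, and 32.7% of all windows held it at least once. Neither held the full cAMP response element TGACGTCA, which 1.55% of all windows hold, nor its core TGACG, found in 17.8% and contained in the full element. The AP-1 site TGANTCA, the GLI site GACCACCCA and the TATA box TATAAA were likewise not in these windows, and 6.75%, 0.225% and 12.4% of all windows hold them. Both strands were searched for every motif, and these letters were not looked for outside the windows.

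The arrays carried 24192 spots, of which 14375 were never among the dimmest 10% in either channel of any array and were analysed. The median intensity of an array ranged from 481.8 to 1491 in Cy3 and from 551.5 to 2175 in Cy5, over a median local background of at most 28.7. Over all spots the SD of the 6 ratios at a time had a median between 0.272 and 0.35 (log2). After the sign was turned to CRH over untreated, the means of the opposite dye orientations correlated at r from -0.634 to -0.288 across spots, so that the orientations tended to disagree in sign. The cause was not tested. A difference that follows the dye alone cancels in the mean over equal numbers of both orientations, and the direction of every ratio rests on the dyes as labelled. Arrays were quantified on days that nearly coincide with the time points, so day and time cannot be told apart, except that 3 and 6 h were quantified on the same day. Of 14 corticotrope markers 11 were found on the array by name and 9 were measured. Their 12 spots were brighter than 0.0626% (Scg3) to 98.1% (Cpe) of measured spots. The Pomc spot, for the precursor of ACTH, was brighter than 94.6%, and that of Tbx19, the transcription factor that drives it, than 10.2%. Scg3, a granin-binding protein of secretory granules, and Cpe, a carboxypeptidase of the same granules, were each bright on 1 spot and dim on another, at 61.4% and 0.0626% and at 98.1% and 16.9%. Of the fibroblast markers all 5 were measured, and the brightest, Col3a1, exceeded 28.2% of spots. For 2 leukocyte markers the highest value was 43.3%, and growth hormone, the 1 measured marker of other pituitary lineages, exceeded 1.29%. These ranks say that a probe gave signal, and they do not compare the amounts of different transcripts.

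Of the 5 member spots, 4 passed the intensity filter. The second Gli3 spot, 23665, lay in the lowest 10% in 1 of 60 channels and its values come from a fit without the filter. The spots differed in brightness: the second Rasl11b spot, 8264, was brighter than 93% of measured spots, whereas the others were brighter than 32.6% (Rasl11b, 2904), 28.7% (Gli3, 7196), 15.2% (Gli3, 23665) and 25.3% (Mpp7, 7645). The 3 selected spots were thus dimmer than most. The mean log2 intensity of the Rasl11b spot 2904 varied between 8.28 and 11.7 across the arrays, with an SD of 0.758, and over all measured spots the median of this SD was 0.687. Brightness of a cDNA spot depends on the clone and its amount on the glass, so these ranks place a spot within the range of the scanner and do not compare expression between genes.

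Rasl11b was higher in CRH RNA at 1 h and declined towards the level of the controls thereafter. At 1 h the log2 ratios of spot 2904 were 0.21, 0.98 and 0.17 with the CRH RNA in Cy3 and 0.94, 1.21 and 0.56 with it in Cy5, with a mean of 0.68 ± 0.43 (SD, n = 6 arrays), which is 1.6-fold. All 6 arrays were above 0, and the lowest pair came from the Cy3 orientation. At 3 h the values ranged from -0.23 to 0.89 with a median of 0.57, and the mean was 0.42 ± 0.45 (SD, n = 6). Of these arrays 4 were above 0, and the ranges at 1 and 3 h overlap. At 6 h the mean was 0.14 ± 0.25 (lowest -0.26, median 0.20, highest 0.47), 0.02 ± 0.26 at 12 h (lowest -0.30, median 0.03, highest 0.43) and 0.11 ± 0.44 at 24 h (lowest -0.25, median -0.03, highest 0.95). At these later times 3 or 4 of the 6 arrays were above 0. The high value at 24 h was that of 1 array with the CRH RNA in Cy3. With the 10th percentile of intensity subtracted as background, the mean at 3 h became 1.95, above the 0.86 then found at 1 h, so the order of these times depends on how the background of this dim spot is treated.

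The second spot of Rasl11b also had its highest mean at 1 h, and at 3 h it stood at the level of the controls. Its ratios at 1 h were 0.20, 0.07 and -0.05 in the Cy3 orientation and 0.73, 0.87 and 0.82 in the Cy5 orientation, with a mean of 0.44 ± 0.41 (SD, n = 6). The orientations did not overlap: the Cy3 mean was 0.07 and the Cy5 mean 0.81. The mean was -0.02 ± 0.13 at 3 h and -0.05 ± 0.12 at 6 h, with all 12 array values between -0.23 and 0.10. At 12 and 24 h the orientations fell apart again, with means of -0.43 against 0.54 and of -0.60 against 0.53, which average to 0.06 and -0.03. The spots thus shared the maximum at 1 h, while the value at 3 h was that of the first spot alone.

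Gli3 was higher in CRH RNA at 1 h on its selected spot and at no later time. Spot 7196 gave 0.36, 0.50 and 0.35 with the CRH RNA in Cy3 and 0.78, 0.93 and 1.03 with it in Cy5, a mean of 0.66 ± 0.29 (SD, n = 6) or 1.58-fold. All 6 arrays were above 0. At 3 h the mean was -0.09 ± 0.44 (lowest -0.68, median -0.13, highest 0.58), and 2 of 6 arrays were above 0. At 6 h it was 0.16 ± 0.63 (lowest -0.47, median 0.05, highest 0.87), at 12 h -0.06 ± 0.40 (lowest -0.72, median -0.05, highest 0.35) and at 24 h -0.16 ± 0.42 (lowest -0.61, median -0.30, highest 0.40). From 3 h on, the values lay on both sides of 0 at every time point.

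This spread followed the dye orientation. In the Cy3 orientation the mean of the Gli3 spot went from 0.40 at 1 h to -0.42, -0.40, -0.36 and -0.41 at the 4 later times, and in the Cy5 orientation it was 0.91, 0.24, 0.71, 0.23 and 0.08. Both orientations were therefore highest at 1 h, although in the Cy5 orientation the value at 6 h came close. The Cy5 mean exceeded the Cy3 mean at all 5 times, by 0.48 to 1.11.

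**Figure D1:**
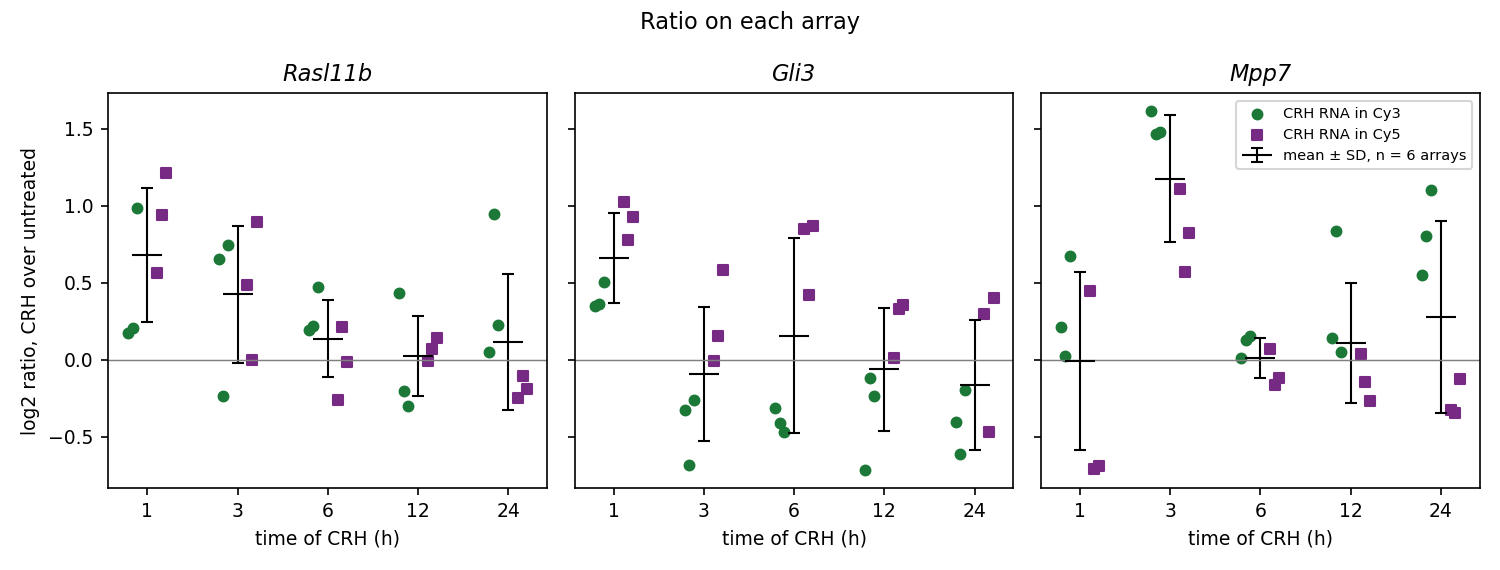
Log2 ratio of CRH over untreated RNA on each array for the selected spots of Rasl11b, Gli3 and Mpp7, by time of CRH in hours; circles have the CRH RNA in Cy3, squares in Cy5, and the bars are mean ± SD of 6 arrays. All 6 arrays lie above 0 at 1 h for Rasl11b (mean 0.68) and Gli3 (0.66) and at 3 h for Mpp7 (1.18), and the Cy5 mean is above the Cy3 mean at all 5 times for Gli3 and below it at all 5 for Mpp7.

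The second Gli3 spot did not show the rise. At 1 h spot 23665 gave ratios of -0.36, -0.09, -0.18, -0.53, -0.38 and -0.05, with a mean of -0.27 ± 0.19 (SD, n = 6), so that the 6 arrays were all below 0 where the 6 of spot 7196 were all above it. At 3 and 6 h its means were 0.06 ± 0.26 and -0.05 ± 0.54, and those at 12 and 24 h were 0.27 ± 0.60 and -0.01 ± 0.45. The lowest single channel intensity of this spot was 87.7, against 434.4 for spot 7196. The deposited name is the same for both spots, and which part of the transcript each clone covers is not given in the sources used here. For Gli3 the induction label therefore holds for 1 of its 2 spots. The paper lists spot 7196 as Gli3 among the genes from its runs to separate the time points. Those runs used these same arrays.

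**Figure D2:**
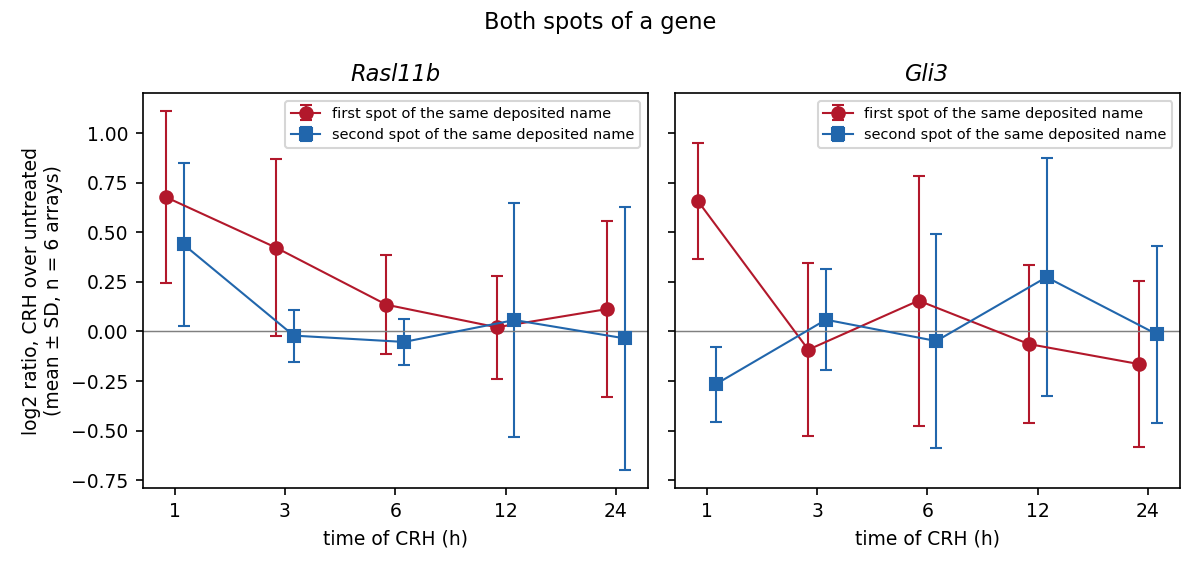
Mean log2 ratio of CRH over untreated RNA ± SD (6 arrays a time point) against hours of CRH for both spots named for Rasl11b and for Gli3. At 1 h the spots of Rasl11b are at 0.68 and 0.44, whereas those of Gli3 are at 0.66 and -0.27.

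Mpp7 was higher in CRH RNA at 3 h and near the controls on average at 1, 6 and 12 h. At 24 h its mean was 0.27, with the dye orientations on opposite sides of 0. RefSeq places the gene on chromosome 18 from 7347962 to 7626889 of GRCm38.p6, and 1 spot carried its name. At 3 h spot 7645 gave 1.46, 1.48 and 1.61 with the CRH RNA in Cy3 and 0.57, 0.82 and 1.11 with it in Cy5. The mean of 1.18 ± 0.41 (SD, n = 6) corresponds to 2.26-fold. All 6 arrays were above 0, and no other measured spot had a higher mean at 3 h. At 1 h the mean was -0.01 ± 0.58 (lowest -0.71, median 0.12, highest 0.67), so that the spot is not an induced one at the first time point. At 6 h it was 0.01 ± 0.13 with all arrays between -0.17 and 0.15. The 3 and 6 h arrays were quantified on the same day, did not overlap, and their means differed by 1.16. The spot was selected on its ratios, so this difference is a description only.

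At 12 h Mpp7 had a mean of 0.11 ± 0.39 (lowest -0.27, median 0.04, highest 0.84) and at 24 h of 0.27 ± 0.62 (lowest -0.35, median 0.21, highest 1.10). At 24 h the orientations did not overlap: the Cy3 mean was 0.82 ± 0.28 and the Cy5 mean -0.27 ± 0.12 (SD, n = 3 each). The Cy3 mean exceeded the Cy5 mean at all 5 times, by 0.17 to 1.08, which is the reverse of the order of the Gli3 spot. In both orientations the mean at 3 h was the highest of the 5 times.

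The change of the dye difference over time was tested for the second spots, which the selection did not use. In a linear model of the ratio on time and orientation, fitted to each spot, the interaction passed p under 0.01 on 14.8% of the 14375 spots and an adjusted p under 0.05 on 12.2%. The bright second Rasl11b spot passed, with p = 0.00012 and adjusted p = 0.0051 (n = 30 arrays). Its Cy5 mean exceeded its Cy3 mean by 0.74 after 1 h, by 0.02 and 0.07 after 3 and 6 h, and by 0.97 and 1.13 after 12 and 24 h. The second Gli3 spot gave p = 0.753 (n = 30 arrays). Since all arrays of a time share their extracts, these p-values measure technical spread. A p that misses the threshold does not show that the orientations moved alike over time.

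Against the rest of the array, the selection is described by a size rule, a mean ratio of 1.5-fold or more to which each of the 6 arrays contributed the same sign. At 1 h 14 spots were past it upwards, 0.0974% of those analysed, and the first spots of Rasl11b and Gli3 were among them. As many, 14 spots (0.0974%), were past it downwards at 1 h. At this time 14 spots had a higher mean than Rasl11b and 17 a higher mean than Gli3, whether or not their arrays shared a sign. At 3 h 0.146% were past it upwards, Mpp7 among them, and 0.0139% downwards. At 6, 12 and 24 h 0.0348%, 0.125% and 0.104% were past it upwards, with no member spot among them. The lowest mean inside the rule was 0.594 at 1 h and 0.588 at 3 h, and the highest mean just outside it with all arrays above 0 was 0.582 at both times. The second Rasl11b spot, at 0.44 with 5 of 6 arrays above 0, was outside, though above 99.1% of all spots at 1 h. Without the fifth array of 1 h the mean of Rasl11b was 0.57, and without the sixth that of Gli3 was 0.58, both just under 1.5-fold, while Mpp7 kept its place with every array left out in turn. These shares say how rare such values are here, and since the values selected the members they support nothing further.

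The spots printed around each member were lower than it at its peak. The selection for high ratios nearly fixed this order beforehand, and a local effect of printing was not tested. Of the 8 spots around Rasl11b spot 2904, 2 were measured and had means between -0.02 and 0.15 at 1 h. Around Gli3 spot 7196 5 were measured, with a median of -0.06 and a highest mean of 0.38 at 1 h. Around Mpp7, at the edge of its block, 4 of 5 were measured, with a median of 0.05 and a highest mean of 0.35 at 3 h.

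The levels in the individual RNAs were obtained from the same fits, with mean intensities made comparable between arrays. The ratio is measured on 1 glass slide, while levels across time also carry differences between slides, and in bulk RNA a lower level per cell and fewer cells with the transcript cannot be told apart. For Rasl11b spot 2904, CRH RNA at 1 h had the highest log2 intensity of the 10 RNAs, 10.77 ± 0.35, and untreated RNA at 1 h was lower than all but 1 other with 10.09 ± 0.30 (SD, n = 6 each). The lowest was untreated RNA at 3 h, 9.68 ± 0.88. No neighbours in this order were further apart than the larger of their SDs, and the widest gap was 0.41. The second spot of Rasl11b had the same RNA on top, at 13.26 ± 0.44, and both RNAs of 24 h at the bottom, at 12.51 and 12.47.

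For Gli3 spot 7196 CRH RNA at 1 h, 10.75 ± 0.44, and at 6 h, 10.74 ± 0.31, shared the top with untreated RNA at 6 h, 10.59 ± 0.52. CRH RNA at 24 h was lowest at 9.64 ± 0.70, and no neighbours differed by more than the larger SD. The higher level at 6 h was thus present in both RNAs, unlike that at 1 h, where untreated RNA was at 10.1 ± 0.59. For Mpp7 CRH RNA at 3 h stood at 11.03 ± 0.50, apart from the next, CRH RNA at 24 h with 10.24 ± 0.71, by 0.79. This was the only gap in the order of its levels wider than the larger SD of its neighbours. Untreated RNA of Mpp7 stayed between 9.64 and 9.97 over the 5 times.

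**Figure D3:**
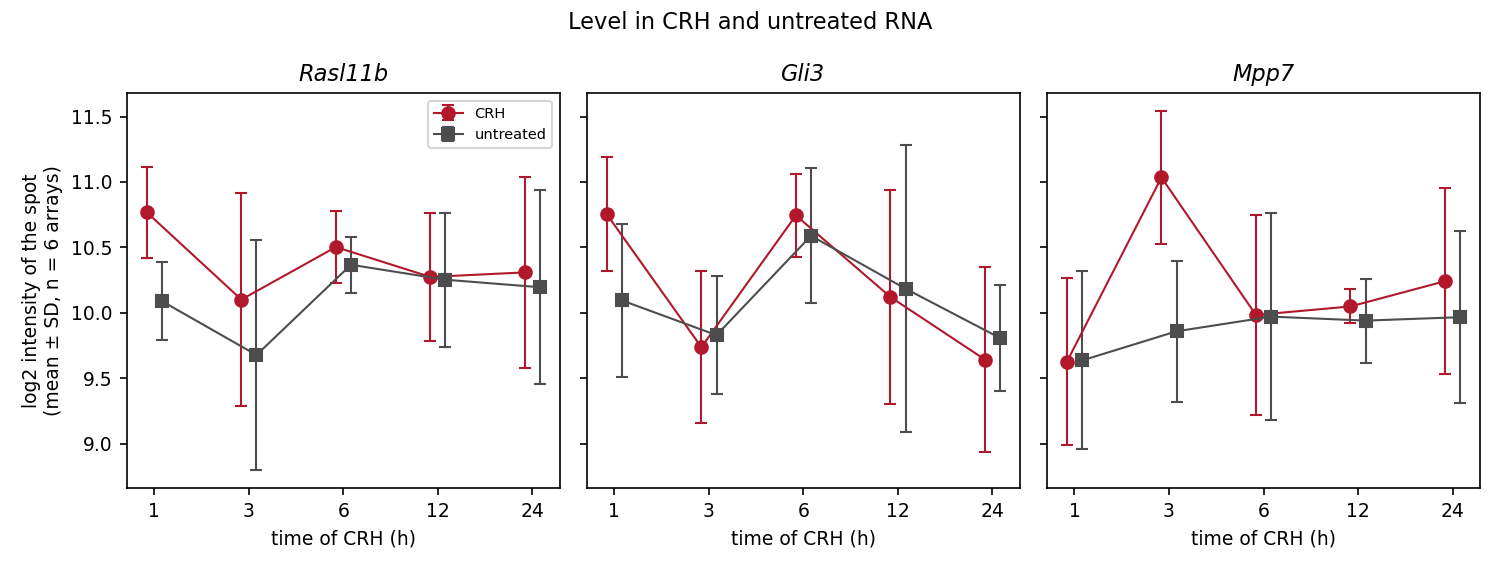
Log2 intensity of the selected spots in CRH RNA (circles) and untreated RNA (squares) against hours of CRH, as mean ± SD of 6 arrays; heights are not comparable between panels, since each panel is another spot. CRH and untreated RNA are furthest apart at 1 h for Rasl11b and Gli3 and at 3 h for Mpp7. At 3 h the CRH level of Mpp7 is 11.03, and its untreated level lies within the 9.64 to 9.97 seen over all times. Rasl11b at 3 h has CRH RNA at 10.10 and untreated RNA at 9.68, with SDs of 0.82 and 0.88.

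The time course of Mpp7 stood further from the others than those of Rasl11b and Gli3 from each other. The root mean square difference of the 5 mean ratios was 0.26 between the first spots of Rasl11b and Gli3, 0.47 between Rasl11b and Mpp7 and 0.68 between Gli3 and Mpp7. Between the 2 spots of Rasl11b it was 0.25 and between those of Gli3 0.46. The second Rasl11b spot was closer to the Gli3 spot 7196, at 0.16, than to the other spot of its own name. All these values share the same arrays.

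Among 4655 measured spots of other genes with a symbol, the 5 nearest to Rasl11b were Tm9sf4, 4930417O13Rik, Capsl, Paqr3 and Kcnk10, at root mean square differences from 0.15 to 0.21. Paqr3, a Golgi protein that tethers RAF kinase, had a mean of 0.43 ± 0.29 at 1 h. Kcnk10, a potassium channel of the TREK family, had 0.54 ± 0.64. The nearest to Gli3 were Ttc14, Fry, Trak1, Inpp1 and 2310057M21Rik, at 0.09 to 0.13. Trak1, an adaptor that links mitochondria to motor proteins, had a mean of 0.47 ± 0.43 at 1 h and 0.01 ± 0.16 at 3 h. The nearest to Mpp7 were further off, at 0.28 to 0.31: Tpgs2, Spats2l, 0610012G03Rik, Samd14 and Rpl4. Rpl4, which codes for a ribosomal protein, had 0.55 ± 0.43 at 3 h, less than the 1.18 of Mpp7, and Spats2l, whose spot is printed beside the Gli3 spot 7196, had 0.59 ± 0.26.

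The genes related to each member were read from lists of known pathway and family members. Of 14 Hedgehog genes named by their role, 10 were found on the array by name and 6 were measured, on 8 spots. Smo, the membrane protein that passes on the Hedgehog signal, had a mean of 0.37 ± 0.13 at 3 h and -0.05 ± 0.43 at 1 h. The receptor Ptch1, itself a target of the pathway, was at 0.15 ± 0.56 at 1 h and at -0.27 ± 0.26 at 24 h. Gli2, the closest relative of Gli3, was at 0.10 ± 0.19 at 1 h and 0.08 ± 0.16 at 3 h, and Sufu, which holds the Gli proteins in the cytoplasm, was at 0.13 ± 0.44 and -0.06 ± 0.33. The coreceptor Gas1 was measured on 3 spots, which disagreed at 1 h with 0.37 ± 0.47, -0.00 ± 0.26 and 0.19 ± 0.29, and Boc, another coreceptor, was at -0.06 ± 0.14. No measured spot of these genes was past the size rule at any time. Over all spots at most 0.146% were past it upwards at a time, so none among 8 spots is near that share. The ligands Ihh and Dhh and the target Gli1 did not pass the intensity filter, with 6, 2 and 9 of 60 channel values in the lowest 10%. Without the filter the spot of Ihh was at 0.65 ± 0.41 at 1 h with all 6 arrays above 0, close to the 0.66 of Gli3, and at 0.07 ± 0.86 at 3 h. The spot of Dhh was at -0.03 ± 0.49 and that of Gli1 at -0.09 ± 0.98 at 1 h.

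Of 17 RAS-like and RAS genes, 10 were measured on 11 spots, and at 1 h their means lay between -0.29 (Nras) and 0.20 (Rasl11a). Rasl11a, the closest relative of Rasl11b, had 0.20 ± 0.38 at 1 h and -0.19 ± 0.59 at 3 h, where Rasl11b spot 2904 had 0.68 and 0.42. Rasd1, a small GTPase that glucocorticoids induce in these cells, was at -0.28 ± 0.31 at 1 h, and Rem1, of the branch that inhibits calcium channels, at 0.22 ± 0.42 at 3 h. No measured spot of this family was past the size rule either, which for 11 spots is also near the share over all spots.

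Of 18 MAGUK proteins and partners, 8 were measured on 14 spots. Mpp6, a MAGUK of the same subfamily as Mpp7, had a mean of -0.20 ± 0.20 at 1 h and of 0.47 ± 0.17 at 3 h, followed by 0.16 ± 0.28, 0.57 ± 0.12 and 0.46 ± 0.29 at 6, 12 and 24 h. Its ratios differed between time points beyond the technical spread of the arrays (p = 9.2e-06, adjusted p = 0.0014 in the linear model of each spot, n = 30 arrays from 5 pairs of extracts), while no time point passed the size rule. The other measured family member, Mpp5, was at -0.10 ± 0.34 at 3 h. The binding partner Lin7c was measured on 3 spots, at -0.04, -0.08 and 0.03 at 3 h. Cask, Dlg2, Dlg3 and Dlg4, scaffolds of synapses and junctions, had means between -0.25 and 0.20 at 3 h. Pard3, a scaffold of the polarity complex at tight junctions, was at 0.37 ± 0.26 at 1 h and -0.43 ± 0.57 at 3 h. Both spots of the partner Dlg1 failed the intensity filter, and without it they were at 0.24 ± 0.87 and -0.01 ± 0.26 at 3 h.

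**Figure D4:**
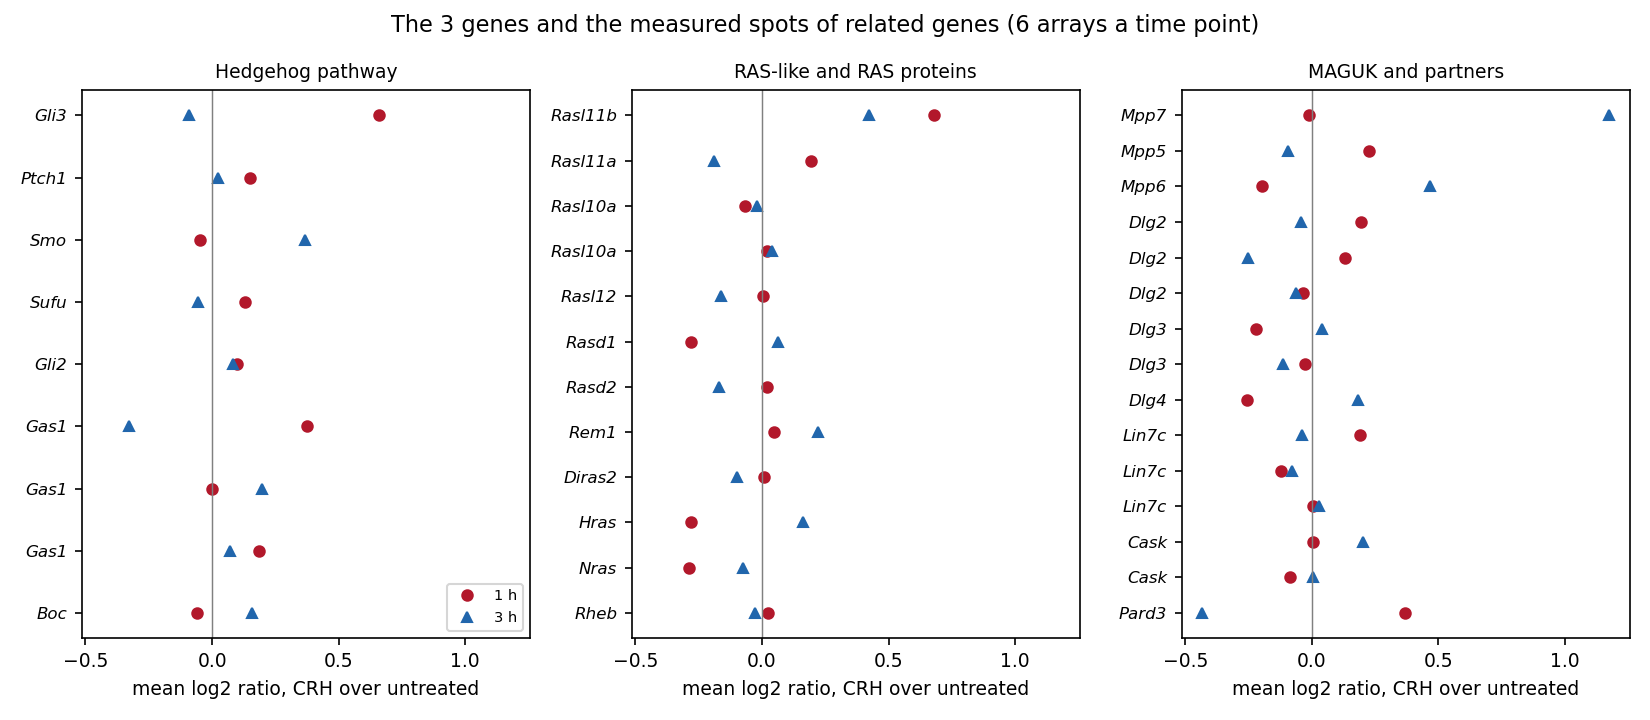
Mean log2 ratio of CRH over untreated RNA at 1 h (circles) and 3 h (triangles), over 6 arrays each, for the selected spot of Gli3, Rasl11b and Mpp7 (top row of each panel) and every measured spot of the genes named beside it, 1 row a spot. At 1 h no related spot that passed the intensity filter is as high as Gli3 (0.66) or Rasl11b (0.68), and at 3 h the nearest to Mpp7 (1.18) is Mpp6 (0.47). The selection of the top row for high ratios nearly fixed this order beforehand.

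The wider lists, without the members, hold further genes of each pathway. A change over time at p under 0.01 was called on 9.86% of all spots, with the orientation as a covariate and the technical spread as the error. It was called on 4 of 56 Hedgehog spots (7.14%). These were the spots of Disp2 and of Mycn, a target gene, and both spots of Csnk1a1, a kinase that phosphorylates Gli proteins. The change was called on 3 of 47 spots (6.38%) of RAS and RAS-like proteins and their regulators (Rit1, Hras and Rapgef2). In the list of MAGUK and polarity proteins it was called on 3 of 60 (5%), namely Lin7c, Pard3 and Mpp6. Of 35 spots of immediate early and cAMP response genes 5 (14.3%) were called, on Egr3, Per1, Odc1 and both spots of Id2. Of these 15 list spots 7 also passed the interaction of time and dye orientation at p under 0.01, Odc1 and Mycn among them. Over all spots 14.8% passed this interaction. With 1 array per time point left out in turn, the counts ran from 1 to 5 in the Hedgehog list, from 1 to 3 in the RAS list, from 2 to 3 in the MAGUK list and from 2 to 6 in the early list. Odc1, the rate-limiting enzyme of polyamine synthesis, was past the size rule upwards at 3 h with 0.73 ± 0.21. No other measured spot of the 4 lists was past it at 1 or 3 h in either direction. Over all spots 0.0974% were past it upwards at 1 h and 0.146% at 3 h, and downwards 0.0974% and 0.0139%. Id2, an inhibitor of helix-loop-helix factors, had its highest means at 1 h on both spots, 0.45 ± 0.45 and 0.49 ± 0.27. The spots of Crem, whose gene gives cAMP-responsive repressors from an internal promoter, disagreed. Spot 7301 was at -0.21 ± 0.53 at 1 h and 0.18 ± 0.37 at 3 h. Spot 2781 failed the intensity filter through 2 of 60 channels. Without the filter it was at 1.69 ± 0.44 at 1 h and 1.04 ± 0.29 at 3 h, higher at 1 h than Rasl11b and Gli3. All 6 arrays were above 0 at both times. The paper used spot 2781 for Crem and also reported Crem raised in the first 12 h by quantitative PCR. The spots matched by name to Fosl2, Junb, Egr1 and Nr4a1, transcription factors of the immediate early response, also failed the filter. They did so through 1 to 5 channels, and without it had means at 1 h between -0.25 (Fosl2) and 0.49 (Egr1), with SDs of 0.42 to 0.88. The spots matched to Fosl2 here, 4502 and 23164, were at 0.25 and -0.25. The paper assigned Fosl2 to other spots and reported it raised at 1 h on the array and in quantitative PCR.

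At 1 h the median ratio was -0.02 in the Hedgehog list, 0.02 in the RAS list, -0.00 in the MAGUK list and -0.00 in the early list, against 0.00 over all spots. At 3 h the medians were 0.01, -0.06, -0.04 and 0.01 against -0.02. A mean shift over the 5 time points was tested with limma on the time point averages. It was called upwards on 0.0487% and downwards on 0.00696% of all spots and on 0 of 198 spots of the 4 lists. Of the list spots 15 (7.58%) had an unadjusted p under 0.05, against 5.38% of all spots. The error of this test is the spread between time points, so it can hardly call a rise at 1 time alone.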

How the data were processed

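Scanner intensities of each spot and its surroundings in Cy3 and Cy5 were deposited per array, per the file headers without background subtraction or normalisation (QuantArray, fixed circle). The log2 ratios of 12593 spots deposited by the authors had, by their methods, the dimmest 10% of values removed and dye bias corrected by print-tip loess. Members, gene lists and tests were chosen with earlier results of these data known.

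Empty (1170) and control (192) spots were left out. Ratios were corrected by a loess curve (span 0.75, degree 2, 4 iterations) in each of 48 blocks, and on 11341 shared spots correlated with the deposited ratios at r from 0.979 to 0.992. Their sign follows the dyes in the labels. In files that name no dye the channel was read from the image name. Levels used quantile normalisation of mean intensities. Tests were a linear model per spot (time and dye orientation, p under 0.01) and limma on 5 time point averages, with Benjamini-Hochberg adjustment, checked on simulated data. Symbols came from the deposited names for 169 measured spots and from RefSeq synonyms for 4490. The cDNA clones' sequences were not used here, and the number of arrays limits precision. Named genes are the members, the 5 nearest time courses of each, family members chosen by name and list members past a test. Alternatives were other backgrounds, loess fits, filters, tests, replicates left out, the replicate number as a block and the deposited ratios. Tools were R 4.3.3, limma 3.58.1, Python 3.11.15 and matplotlib 3.10.9.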

Additional observations from a re-analysis of the deposited data

Results flagged for a closer look

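The time by dye-swap interaction of the second Rasl11b spot (8264), p = 0.00012 (n = 30 arrays), marks a ratio whose dependence on dye orientation differed between time points, as tested by the linear model. The orientations differed by 0.97 at 12 h and 1.13 at 24 h and by 0.02 at 3 h, and the cause was not tested.

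The first array of Mpp7 at 12 h, with the CRH RNA in Cy3, gave a log2 ratio of 0.84, and the next highest of the 6 arrays was at 0.14, a gap of 0.627 of the whole range. Chance marks about 1 in 20 groups of arrays in this way, and it was the only one marked among the 5 member spots at 5 time points.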

How the results depend on the processing

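The means of Rasl11b and Gli3 at 1 h and of Mpp7 at 3 h stayed above 0 under every background, loess, median and deposited-ratio setting run. With the 10th percentile subtracted, Rasl11b spot 2904 at 3 h had 1.95 against 0.42, and the cause was not tested. A threshold of 2-fold left 1 spot higher at each of 1, 3 and 24 h and 0 at 6 and 12 h, and Rasl11b at 0.68 and Gli3 at 0.66 fell under it. Normexp gave 24 spots higher at 1 h, and a single loess curve per array gave 3 at 6 h. With hours as a number, which fits a line over time, 1088 spots in place of 2126 passed the interaction and 486 in place of 1418 the change over time. The shift over all times was called on 0 spots in either direction without the intensity filter and with a robust trended prior, against 7 higher and 1 lower. Of the list counts, 2 Hedgehog spots in place of 4 changed over time with a single loess curve or the deposited ratios, and 0 RAS spots in place of 3 with a single curve. For all 3 members 0 of the 5 nearest genes were shared with the nearest by Pearson's r over the arrays.

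Leaving out 1 array per time point in turn gave means of 0.57 to 0.78 for Rasl11b at 1 h, 0.58 to 0.72 for Gli3 at 1 h and 1.09 to 1.30 for Mpp7 at 3 h. The size rule then held 18 to 35 spots at 1 h, 20 to 27 at 3 h and 3 to 6 at 6 h. Later it held 16 to 31 (12 h) and 11 to 25 (24 h). In these runs the rule asks the same sign of the remaining arrays only, a looser demand than with all 6. Between 910 and 1282 spots changed over time. Leaving out 1 time point gave 0 to 30 spots higher, 0 to 9 lower and 0 to 2 of the lists in the shift over all times. With 30 higher and 9 lower, the extreme came without 1 h. The interaction of Rasl11b spot 8264 kept p between 0.00015 and 0.0039.

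Same-numbered arrays of different times correlated at r from -0.025 to 0.052 in their deviations, so the numbers do not pair them. With the replicate number as a block the means did not move (Mpp7 at 3 h, 1.18), and 1 RAS spot in place of 3 changed over time.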
